A study of Danio rerio with 2 samples.

Results

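Microtubules are polymers of alpha and beta tubulin dimers, nucleated at gamma tubulin ring complexes and regulated by proteins that fold, sequester, stabilise or track tubulin. They build the mitotic spindle of dividing cells and fill the axons of differentiating neurons, so in a whole embryo the RNA of these genes comes from many tissues, with isotypes and associated proteins that are strongly used in neurons among them. The tubulin and microtubule-associated genes described here were chosen by a rule on gene symbols, with earlier results of these data known. They comprise every probe set whose single annotated symbol names an alpha, beta, gamma, delta or epsilon tubulin, a tubulin folding cofactor, a stathmin, a microtubule-associated protein named map1, map2, map4 or tau, an end-binding protein, a collapsin response mediator protein, gap43 or doublecortin. The rule found 36 genes, read by 45 probe sets, among 8793 genes named by a single symbol. RefSeq symbols of 29 further zebrafish genes match the same rule, and these were not analysed here.

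The series compared zebrafish embryos, collected at 24 hours after fertilization, that had received a morpholino directed at the C1q-like gene with embryos that had received a version of it altered at 5 bases as control. Morpholinos are antisense oligomers that keep an RNA from being translated or spliced, and embryos injected with one are called morphants. Either morpholino was given at about 5 ng per embryo. No strain or mutation is named for either group, and the sources used here do not say how many embryos were pooled. Total RNA of the C1q-like morphants and of the control morphants was hybridized to 1 Affymetrix zebrafish array each, to find genes and pathways affected by the knockdown. No probe set used here is named for the target, so the knockdown itself was not checked.

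Each value is the deposited MAS5 signal of a probe set, a background-corrected brightness on a linear scale. Over 15502 probe sets the median signal was 34.7 in C1q-like morphants and 32 in control morphants. A floor was set at the median of all signals, 33.3, and lower signals were raised to it. The log2 ratio was taken as C1q-like over control morphants, and a gene was called measured where at least 1 array reached the floor. With 1 array per group neither a replicate check nor a test between the groups was possible, so "higher" and "lower" describe these 2 arrays only. The arrays also differed in the day of hybridization and scanning, which cannot be told apart from the injected morpholino. As a gauge of measurement error, the log2 ratio of a single probe set had an SD of 0.44, taken from the differences between the 2 brightest probe sets of 789 genes with several measured. That SD covers differences between probes and none between embryos. It was taken from ratios after the floor, and the pairs include probe sets that share probes, so it may be too small.

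Across the 36 genes the arrays gave mostly small differences, with a few genes well below the rest. Of the 33 measured genes, 20 (60.6%) had a ratio below 1, against 48.8% of all 5958 measured genes, and the median log2 ratio was -0.09, against 0.01 for all measured genes. At least 2-fold lower in C1q-like morphants were 3 genes, or 9.09% of those measured, against 4.1% of all measured genes. They were the beta tubulin gene tubb5, the collapsin response mediator gene dpysl3 and the alpha tubulin gene tuba2. With probe sets averaged the count was 2 of 33, against 214 of all 5968 measured genes. With a pseudocount in place of the floor it was 2 of 36, against 108 of 8793. With the floor at the 75th percentile of signals it was 1 of 25, against 103 of 3374. None of the 33 was at least 2-fold higher, against 1.68% of all measured genes. Lower by more than the probe set SD of 0.44 were 9 genes (27.3%), dpysl5b among them, against 20.3% of all genes, and higher by more than it were 4 (12.1%), against 17.2%. The other 20 lay within it. In RNA of whole embryos, fewer cells of a type and less RNA per cell cannot be told apart. These shares rest on few genes and are given as a description of the 2 arrays. Among all measured genes 70.9% of those past 2-fold were lower, against 57.5% with quantile normalization, 45.2% with the floor at the 25th percentile of signals and 44.4% with no floor, so the balance of lower and higher genes depends on the scaling and on how dim signals are treated.

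The floor decided whether some genes were read at all. On both arrays 30 genes were at or above it, and their median log2 ratio was -0.14, against -0.01 for the 4977 genes of the whole array in the same position. The genes map1lc3c and map1sa passed only through their signal on the C1q-like morpholino array, and dpysl5b only through the control array, so their direction was fixed by the filter. The genes tuba7l, tbce and map1aa were below the floor on both arrays, with signals of 22.7 to 32.1, and are not counted as measured.

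**Figure D1:**
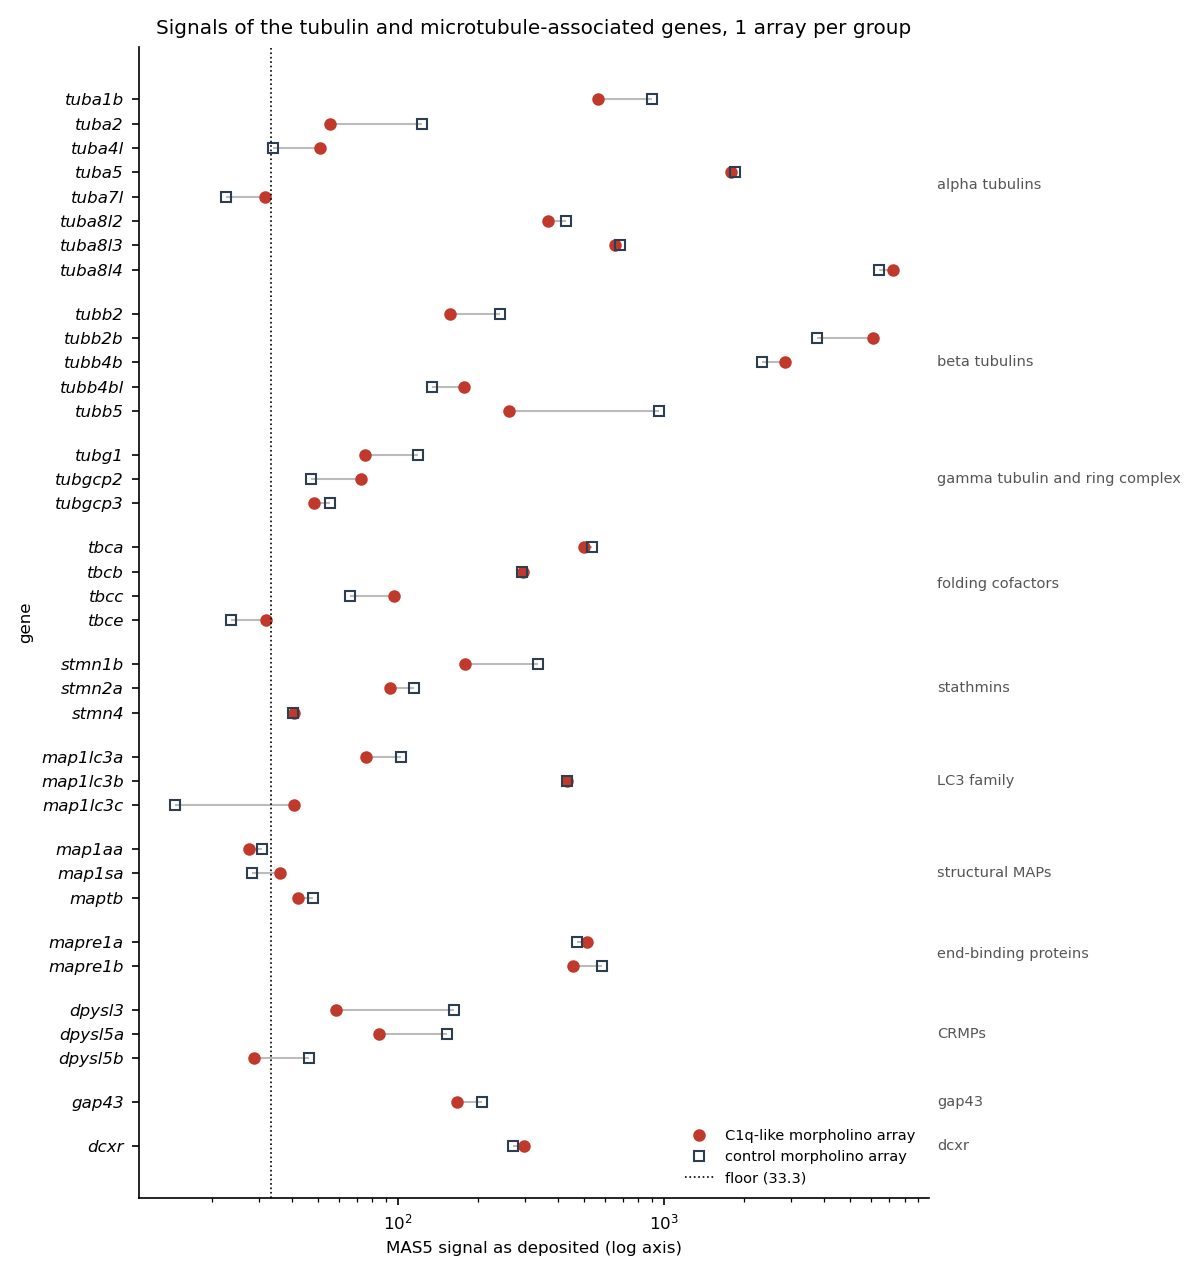
MAS5 signals as deposited (log axis) of the 36 genes on the C1q-like morpholino array (red circles) and the control morpholino array (open squares), grouped by role, with the floor dotted. Each group is 1 array. The longest gap toward lower signal is that of tubb5, at 262.2 in C1q-like morphants and 959.2 in control morphants, while tbcb, stmn4 and map1lc3b coincide on both arrays.

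The alpha tubulins, which form the dimer with beta tubulin, differed little apart from tuba1b, tuba2 and the dim tuba4l. The gene tuba1b belongs to the alpha-1 tubulins, which in fish are used in developing and regenerating neurons. It had a signal of 566.3 in C1q-like morphants and 903.8 in control morphants, 1.60-fold lower, by a probe set that shares probes. Its other probe set, which does not, was 1.68-fold lower, at 417.9 in C1q-like morphants and 702.5 in control morphants. The identifiers of both probe sets differ only in their ending, so they may not be separate readings of the gene. The gene tuba2 read 55.5 in C1q-like morphants and 123.6 in control morphants, 2.23-fold lower. That value rests on 1 of its 3 probe sets, since the other two were under the floor on each array. Their signals were 26.2 and 13.2 in C1q-like morphants against 16.5 and 8.7 in control morphants, which is the opposite order. The log2 ratio of tuba2, -1.16, was -0.83 with a pseudocount in place of the floor and -0.41 with the floor at the 75th percentile of signals, both short of 2-fold.

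Of the remaining alpha tubulins 4 were closer to a ratio of 1. The gene tuba5 had signals of 1785.8 in C1q-like morphants and 1853.3 in control morphants, tuba8l3 had 653.6 in C1q-like morphants and 684.8 in control morphants, and tuba8l2 had 367.9 in C1q-like morphants and 426.8 in control morphants. All 3 are alpha tubulin isotypes, and their log2 ratios of -0.05, -0.07 and -0.21 were smaller than the probe set SD. The isotype gene tuba8l4 read 7240.6 in C1q-like morphants and 6432 in control morphants, a log2 ratio of 0.17 that was -0.26 with quantile normalization and -0.27 with lowess centring. Its direction therefore depends on the scaling. The gene tuba4l read 51 in C1q-like morphants and 33.9 in control morphants, a log2 ratio of 0.59 on a control signal just above the floor. Of the 7 measured alpha tubulins 5 had a ratio below 1, against 48.8% of all measured genes. Among those 5, tuba5, tuba8l3 and tuba8l2 were within the probe set SD. The median log2 ratio of the 7, -0.07, was -0.25 after either quantile normalization or lowess centring.

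The beta tubulins went in opposite directions. The gene tubb5 was the lowest of all 33 measured genes, with a signal of 262.2 in C1q-like morphants against 959.2 in control morphants, 3.66-fold lower. Its log2 ratio of -1.87 lay between -1.75 and -1.88 under every other floor, pseudocount and scaling. A second probe set of tubb5, however, read 107.8 in C1q-like morphants and 102.8 in control morphants, a log2 ratio of 0.07. The mean of both was -0.90, short of 2-fold, so the low reading of tubb5 rests on 1 probe set. The isotype gene tubb2 was also lower, at 157.2 in C1q-like morphants and 242.7 in control morphants.

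The other 3 beta tubulins were higher in C1q-like morphants, tubb4b and tubb4bl by less than the probe set SD as deposited. The gene tubb2b read 6108.6 in C1q-like morphants and 3753.7 in control morphants, the highest log2 ratio of the 33 measured genes at 0.70. It was 0.36 with quantile normalization and 0.32 with lowess centring, and its second probe set, which shares probes, gave 0.35. The gene tubb4b read 2848.3 in C1q-like morphants and 2332.7 in control morphants, and its log2 ratio of 0.29 was 0.06 with quantile normalization and 0.02 with lowess centring. Its relative tubb4bl read 176.8 in C1q-like morphants and 134.3 in control morphants, with log2 ratios of 0.40 as deposited, 0.55 with quantile normalization and 0.53 with lowess centring. Both probe sets of tubb4b share probes, and their identifiers have the same stem as those of tubb2b. Tubulin genes are very alike in coding sequence, so the readings of single isotypes are uncertain. The median of the 5 beta tubulins was 0.29, but -0.11 without probe sets that share probes, where tubb4b drops out.

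**Figure D2:**
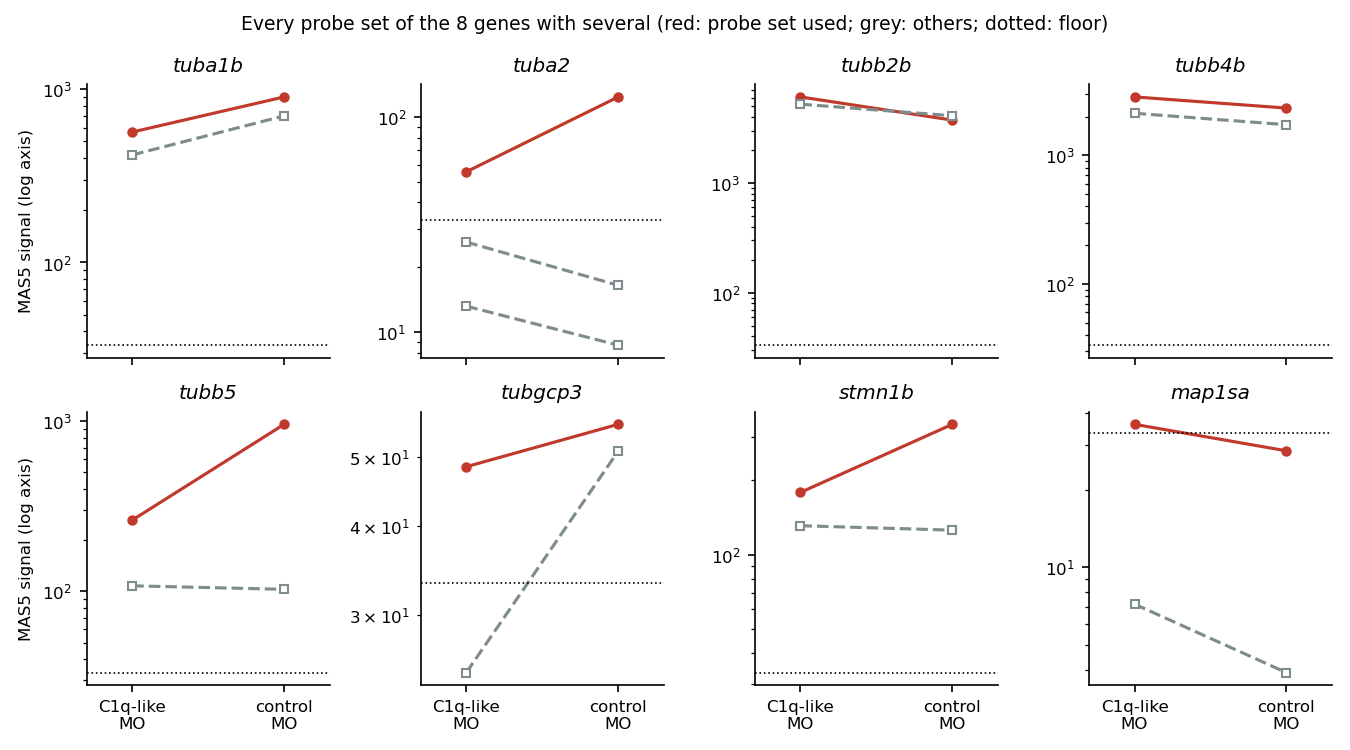
MAS5 signals (log axis) of every probe set of the 8 genes with several, on the C1q-like morpholino array (left) and the control array (right); red marks the probe set used, grey the others, and the dotted line the floor. The grey lines of tubb5 and stmn1b are nearly flat where the red ones are lower in C1q-like morphants. Both probe sets of tuba1b, whose identifiers differ only in their ending, slope alike.

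Of 3 measured genes of microtubule nucleation and 3 measured folding cofactors none was past 2-fold in either direction. Among all measured genes 4.1% were at least 2-fold lower and 1.68% higher, and so few genes cannot show a difference from those shares. Gamma tubulin, encoded by tubg1 and needed to start new microtubules, had a signal of 75.5 in C1q-like morphants and 118.8 in control morphants, 1.57-fold lower. Its ring complex partner tubgcp2 lay the other way, at 72.6 in C1q-like morphants and 47.4 in control morphants, 1.53-fold higher. The partner tubgcp3 read 48.4 in C1q-like morphants and 55.5 in control morphants, and its dimmer probe set gave 24.9 in C1q-like morphants and 50.9 in control morphants. The genes of the nucleation complex thus showed no common direction on these arrays.

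Of the folding cofactors, which release and assemble tubulin subunits after the chaperonin has folded them, tbca and tbcb read nearly the same on both arrays. The signals of tbca were 502.3 in C1q-like morphants and 536 in control morphants, and those of tbcb 296.1 in C1q-like morphants and 291.7 in control morphants. The cofactor gene tbcc was 1.45-fold higher, at 96.6 in C1q-like morphants and 66.4 in control morphants, but its log2 ratio of 0.54 was 0.05 with the floor at the 75th percentile of signals.

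The stathmins bind free tubulin dimers and promote microtubule disassembly. The gene stmn1b had a signal of 178.7 in C1q-like morphants and 337.2 in control morphants, 1.89-fold lower. Its second probe set read 131 in C1q-like morphants and 125.7 in control morphants, so that the mean log2 ratio over both was -0.43 in place of -0.92. The gene stmn2a, whose mammalian counterpart is a growth-associated protein of neurons, was 1.24-fold lower, at 93.1 in C1q-like morphants and 115.1 in control morphants. For stmn4, another stathmin of the nervous system, the signals were 40.6 in C1q-like morphants and 40.3 in control morphants, both near the floor. Its log2 ratio of 0.01 was -0.05 with quantile normalization and -0.07 with lowess centring.

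The collapsin response mediator proteins bind tubulin dimers and act in axon growth and guidance. Both of their genes read above the floor on each array, dpysl3 and dpysl5a, were lower in C1q-like morphants. The gene dpysl3 had a signal of 58.7 in C1q-like morphants and 163.2 in control morphants, 2.78-fold lower. Its log2 ratio of -1.48 was -1.36 with quantile normalization, -1.34 with lowess centring and -0.81 with the higher floor, which lies above its signal on the C1q-like morpholino array. The gene dpysl5a was 1.79-fold lower, at 85.2 in C1q-like morphants and 152.7 in control morphants. Its paralogue dpysl5b had 28.9 in C1q-like morphants, below the floor, and 46.3 in control morphants, and it is not counted with them because the filter fixed its direction. Each of the 3 genes was read by 1 probe set, so no second reading was at hand. The growth cone membrane protein gene gap43, a marker of growing axons, had signals of 166.1 in C1q-like morphants and 207.5 in control morphants. Its log2 ratio of -0.32 was smaller than the probe set SD.

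Little can be read of the structural microtubule-associated proteins, which stabilise the polymer. The tau gene maptb had signals of 42.2 in C1q-like morphants and 48.2 in control morphants, and map1sa had 36 in C1q-like morphants and 28.4 in control morphants. Both were near the floor, and map1aa was below it. The genes of the end-binding proteins, which ride on growing plus ends, were well above the floor. The log2 ratios of both paralogues were smaller than the probe set SD. The gene mapre1a read 513.8 in C1q-like morphants and 469 in control morphants, a log2 ratio of 0.13, and mapre1b read 453.9 in C1q-like morphants and 582.2 in control morphants, a log2 ratio of -0.36. Under all 10 alternative settings mapre1a lay between 0.12 and 0.15 and mapre1b between -0.36 and -0.34. Each was read by 1 bright probe set, whose value most of these settings could hardly change.

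The symbol rule also takes in genes whose proteins do other work. The LC3 genes are named after a light chain found with microtubule-associated protein, but their proteins mark autophagosomes. The signals of map1lc3b were 430.1 in C1q-like morphants and 433 in control morphants, and those of map1lc3a 76 in C1q-like morphants and 102.6 in control morphants. The gene map1lc3c read 40.7 in C1q-like morphants and 14.5 in control morphants, at least 1.22-fold higher. Without a floor its log2 ratio of 0.29 was 1.49, the only one of the 36 genes past 2-fold higher at that setting. The gene dcxr encodes a carbonyl reductase with no tie to doublecortin beyond the letters of its symbol, and it read 296.6 in C1q-like morphants and 271 in control morphants.

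**Figure D3:**
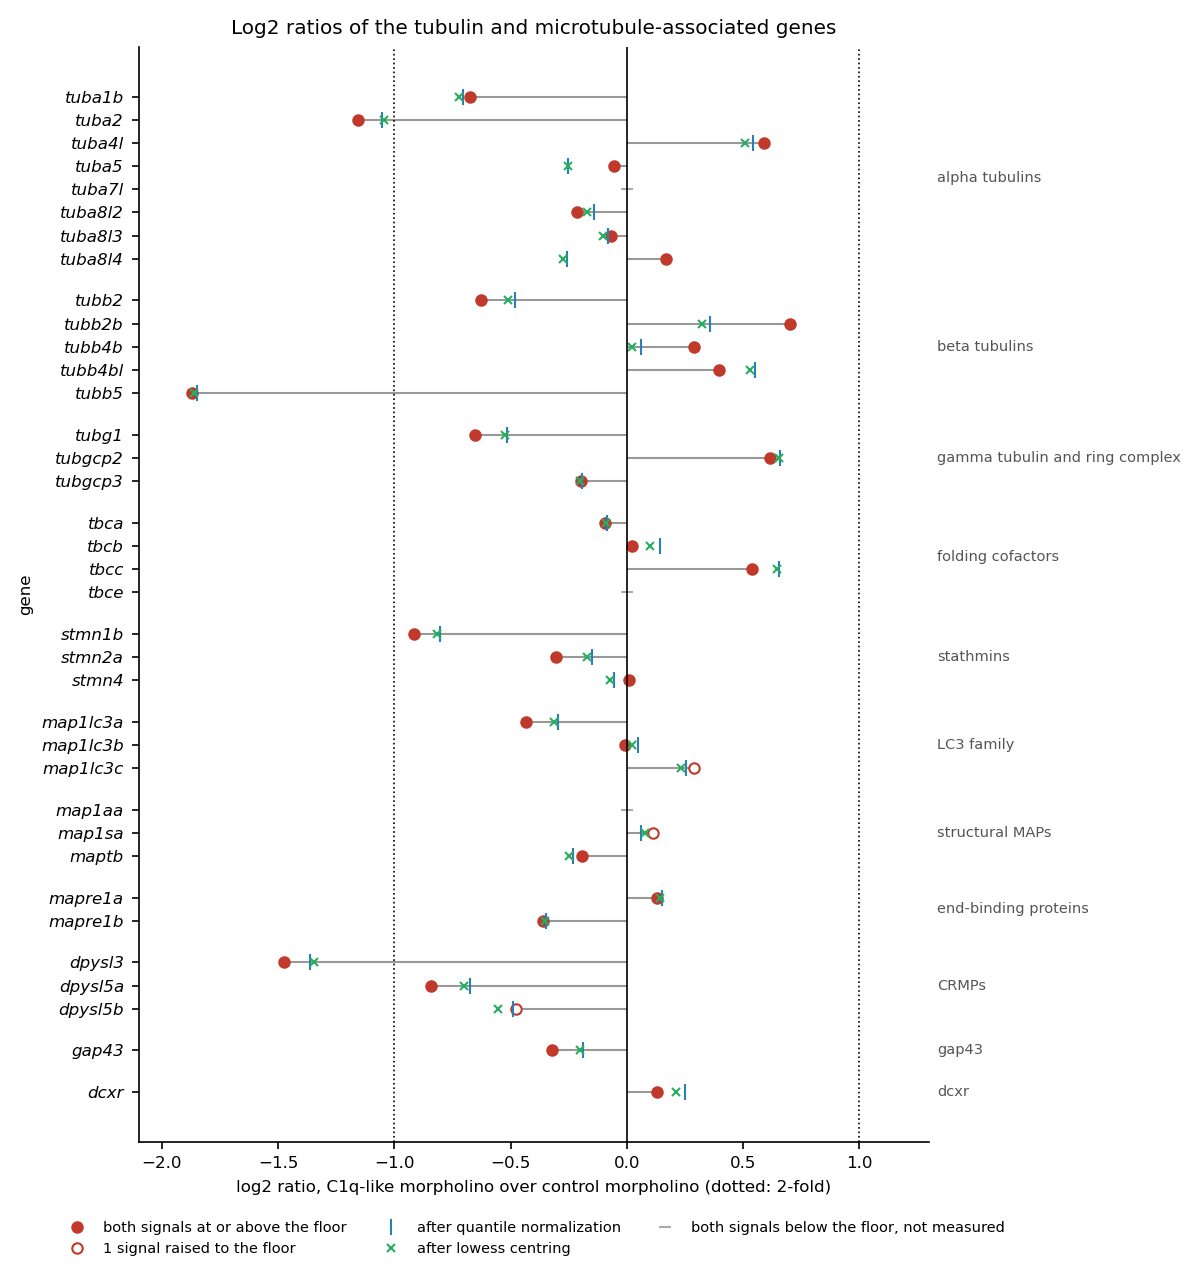
Log2 ratio of C1q-like over control morpholino for each gene by role, with filled circles where both signals were at or above the floor, open circles where 1 was raised to it, and marks for the values after quantile normalization and lowess centring; dotted lines mark 2-fold. Only tubb5, dpysl3 and tuba2 lie beyond 2-fold, all lower, and the 3 settings put tuba8l4 on different sides of 0.

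Of the 33 measured genes 30 kept the sign of their log2 ratio, or reached 0, under each of the 10 alternative settings that read them, 19 of them lower and 11 higher. The exceptions were tuba8l4, stmn4 and map1lc3b, each of which changed sign under both quantile normalization and lowess centring. Most of the settings could hardly change a sign. Another floor, no floor or a pseudocount keeps the order of a gene's signals on the arrays, and updated symbols left these values unchanged. Averaging or leaving out probe sets could act only on genes with several probe sets or with shared probes. Between the arrays the ratio varied with signal for all genes, with a median log2 ratio of 0.20 in the octile of highest signals and -0.09 in the fifth and in the sixth octile. The 6 tubulin genes in the highest octile had a median of 0.06. In the fifth octile dpysl3, dpysl5a and stmn2a had a median of -0.84. This was the lowest of the medians of the measured tubulin and associated genes by octile. The others ran from -0.54 in the fourth octile to 0.21 in the third, each on few genes. In the seventh octile, where tubb5 lies, 3.22% of all genes were at least 2-fold lower.

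**Figure D4:**
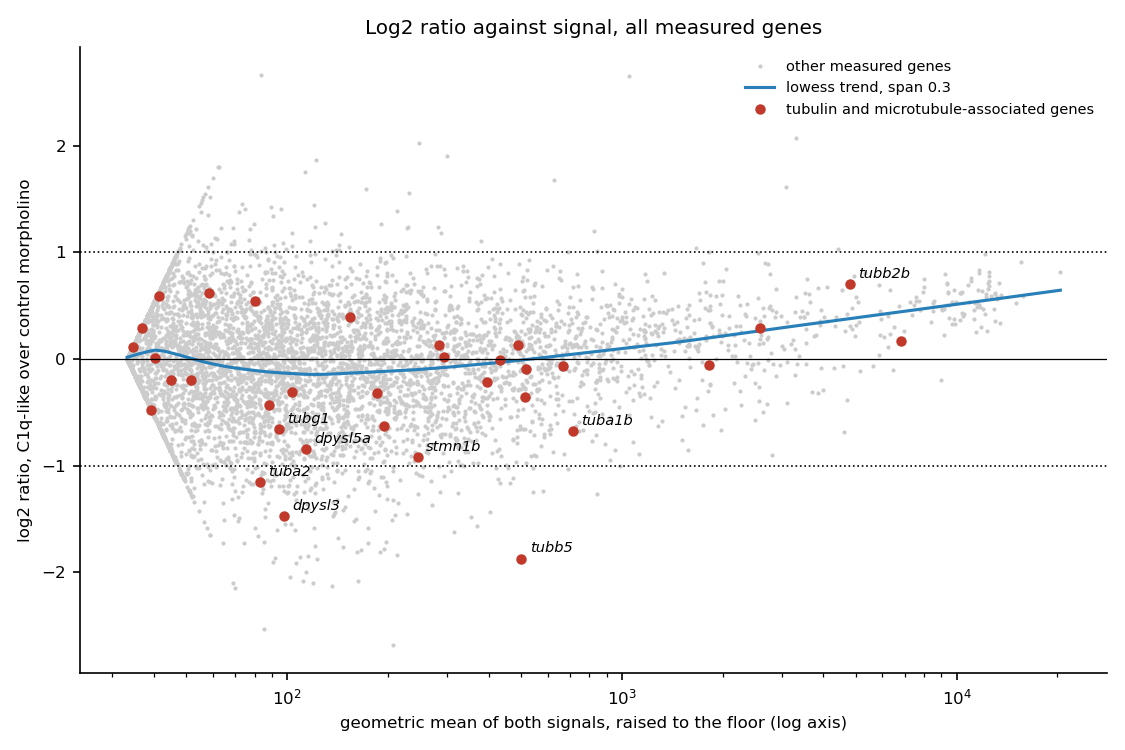
Log2 ratio of C1q-like over control morpholino against the geometric mean of both signals (log axis) for all 5958 measured genes, with the 33 measured tubulin and microtubule-associated genes in red and the lowess trend in blue. The trend rises above 0 at high signals, where tubb2b lies above it. By the probe set used, tubb5 was at -1.87, with none of the 745 genes in its octile of signal below it. The second probe set of tubb5 gave 0.07.

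Other genes of the microtubule system were read from lists of names. The chaperonin and prefoldin genes that fold tubulin and actin, with their cofactors, had 11 of 16 measured genes above a ratio of 1. Among all 5958 measured genes 3034 were above 1. None of the 16 was past 2-fold, against 4.1% of all measured genes lower and 1.68% higher. The median log2 ratio of the list, 0.13, was 0 with quantile normalization and -0.0036 with lowess centring. Highest were the prefoldin subunit genes pfdn6 (79.7 in C1q-like morphants, 59.2 in control morphants) and vbp1 (1054.2 in C1q-like morphants and 784 in control morphants). Lowest were the phosducin-like partner txndc9 (104.9 in C1q-like morphants and 162.6 in control morphants) and the chaperonin subunit cct6a (1411.2 in C1q-like morphants and 1960 in control morphants).

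Motor proteins carry cargo along microtubules and move the spindle. Of 11 measured dynein and dynactin genes 8 had a ratio below 1, against 48.8% of all measured genes, and the median log2 ratio was -0.52. With the pseudocount, which reads 17 genes of the list, that median was -0.17. The same 17 genes had a median of -0.45 with no floor and with the floor at the 25th percentile of signals. The dynein regulator nde1 was 2.34-fold lower, at 76.4 in C1q-like morphants and 179.1 in control morphants, followed by the light chain gene dynlt3 at 1.65-fold. Highest were the light chain genes dynlrb1 at 0.25 and dynll1 at 0.10 on the log2 scale. Of 17 measured kinesin genes 10 had a ratio below 1, of which kif14, kif5aa and kif20bb passed only through the control array. The lowest of the 17 was kif14, at 20.7 in C1q-like morphants and 70.1 in control morphants, at least 2.11-fold lower. Of the 14 at or above the floor on both arrays 7 were below 1, with a median of 0.02. The median of all 17 was -0.15, which came to 0 with quantile normalization and -0.010 with lowess. Of those 14 the cytokinesis gene kif23 was lowest, 1.98-fold lower, at 120.5 in C1q-like morphants and 238.9 in control morphants. The mitotic kinesin gene kif20a and the axonal transport gene kif1b were highest, at 0.46 and 0.45.

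Genes of the spindle and of plus ends had 12 of 19 below a ratio of 1, against 48.8% of all measured genes. The median of the list was -0.21 on the log2 scale. Among the 12, tacc2 passed only through the control array. Of the 17 at or above the floor on both arrays 11 were below 1, with a median of -0.21. The microtubule polymerase gene ckap5 was 2.17-fold lower, at 90.2 in C1q-like morphants and 195.3 in control morphants, and the spindle pole gene numa1 was 1.59-fold lower. The centrosome gene nedd1 was at least 1.49-fold higher, with a control signal below the floor, and racgap1 was 1.44-fold higher. Of 9 measured severing and tubulin-modifying genes 4 were at or above the floor on both arrays, and these lay between the tubulin ligase family gene ttll4 at -0.30 and the deacetylase gene sirt2 at 0.18 on the log2 scale. The ligase family gene ttll1 was at least 1.61-fold higher, at 53.5 in C1q-like morphants and 33 in control morphants, just under the floor. The second lowest of the 9, hdac6, passed only through the control array, at 30.5 in C1q-like morphants and 36.9 in control morphants.

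Actin and intermediate filament genes were read for comparison with the tubulins. Of 24 measured 15 had a ratio above 1, against 3034 of all 5958 measured genes. None was past 2-fold, against 4.1% of all measured genes lower and 1.68% higher. The median of the list was 0.11 on the log2 scale, 0.056 with quantile normalization and 0.025 with lowess centring. The actin nucleation gene actr3 was 1.98-fold higher (388.3 in C1q-like morphants, 196.1 in control morphants) and cfl1l, a cofilin gene, 1.86-fold higher (3643.3 in C1q-like morphants and 1958.6 in control morphants). The intermediate filament gene vim was 1.96-fold lower (266.4 in C1q-like morphants and 522.6 in control morphants). The gene inab, encoding a neuronal intermediate filament protein, was at least 1.81-fold lower, but it passed only through the control array.

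Markers of cell types also differed between the arrays. Among all measured genes 48.8% had a ratio below 1 and 4.1% were at least 2-fold lower, the background for the counts of markers. Of 9 measured neuron markers 7 had a ratio below 1, and 3 were at least 2-fold lower, with a median log2 ratio of -0.65. Of the 8 at or above the floor on both arrays 6 were below 1, with a median of -0.78. The summed signal of all 9 measured neuron markers, without the floor, was 540.3 in C1q-like morphants and 1181.9 in control morphants. The pan-neuronal gene elavl3 read 35.5 in C1q-like morphants against 204.7 in control morphants by its brightest probe set. A dimmer probe set of elavl3 read 65 in C1q-like morphants and 43.4 in control morphants, the opposite order. The related gene elavl4 read 6.8 in C1q-like morphants against 45.2 in control morphants, and it passed only through the control array, so the filter fixed its direction and its log2 ratio after the floor was -0.44. The synaptic gene snap25a read 123.9 in C1q-like morphants against 193.8 in control morphants. Its paralogue snap25b, at 37.3 in C1q-like morphants and 36.6 in control morphants, and nsfa, at 43.1 in C1q-like morphants and 40.1 in control morphants, were the 2 neuron markers above a ratio of 1. Another 3 of 12 neuron markers were below the floor on both arrays. Of 11 neural progenitor markers 9 were below 1, notch1a among them through the control array alone, with a median of -0.78. Of the 10 at or above the floor on both arrays 8 were below 1, with a median of -0.88. The summed signals of the 11, without the floor, were 2302.5 in C1q-like morphants and 3741.9 in control morphants. Of 10 markers of dividing cells 9 were below 1, with a median of -0.85. The summed signals of the 10 were 7719.8 in C1q-like morphants and 8398 in control morphants. The largest part of both sums was pcna, the only marker of the 10 above 1, at 4828.1 in C1q-like morphants and 3891.5 in control morphants. Skeletal muscle markers had 8 of 9 above 1, myod1 among them through the C1q-like morpholino array alone, and a median of 0.28. Epidermis markers had 8 of 9 above 1 and a median of 0.65, with 2 at least 2-fold higher, against 1.68% of all measured genes. Most markers of muscle and epidermis lie in the octile of highest signals, where the median of all genes was 0.20. Scaling therefore limits both medians and the calls past 2-fold. The marker lists were not read under the alternative settings. Markers of ciliated cells, which also carry stable microtubules, were measured for 3 of 8 genes, with signals of 35.7 to 57.5 on both arrays. The part of these markers in the tubulin values was not tested.

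**Figure D5:**
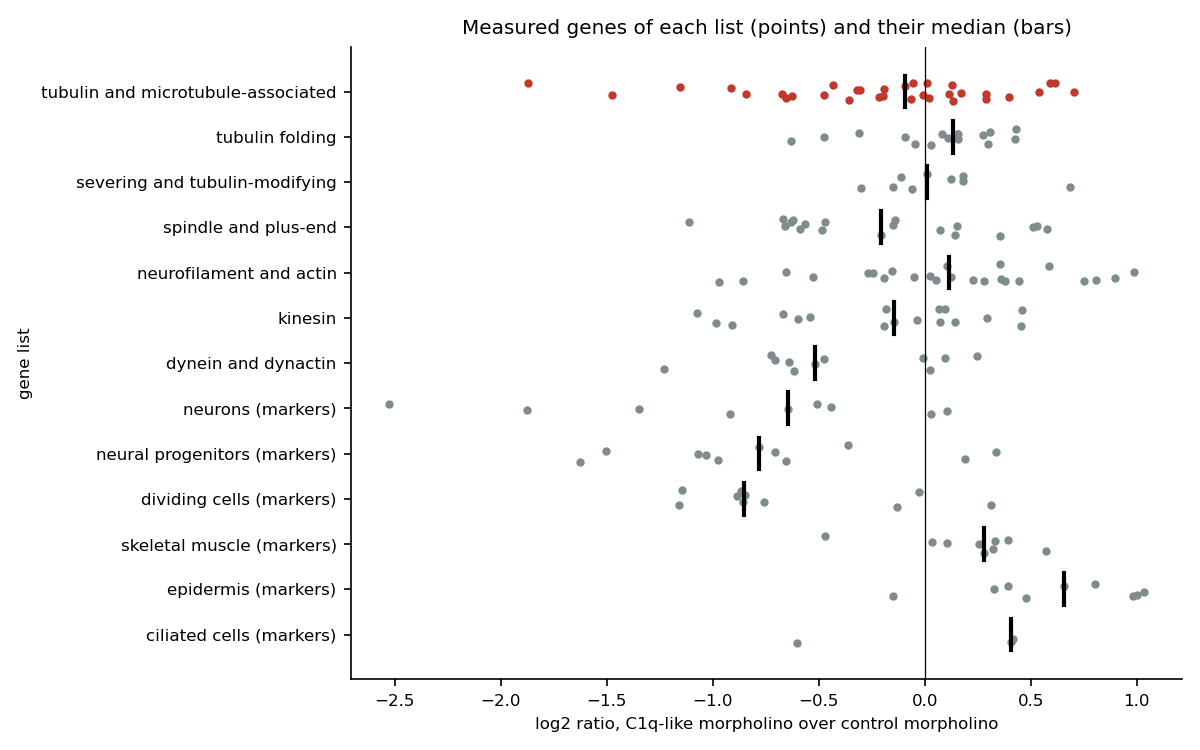
Log2 ratio of C1q-like over control morpholino for each measured gene (points) and the median (bars) of the tubulin and microtubule-associated genes (red), of other cytoskeletal lists and of cell type markers (grey). The median of the red points is -0.09, and those of the neuron, neural progenitor and dividing cell markers are -0.65, -0.78 and -0.85.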

How the data were processed

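The authors deposited 1 linear signal intensity per probe set and array, made with MAS5 per the submitters' processing notes. MAS5 subtracts mismatch probe brightness and scales each array by 1 factor. Its version and scaling target are not given in the sources used here. Of 42 deposited scanner and fluidics settings, the 2 that differed were the days of hybridization and scanning.

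Gene names came from the platform annotation, in which 10795 of 15502 probe sets carried a single name. All 36 genes described here were found by Entrez number in RefSeq's gene table (GRCz12tu), which served for names and gene order. Where a gene had several probe sets, that with the highest mean log2 signal was used. A fold with 1 signal raised to the floor of 33.3 is a lower bound. No test was possible with 1 array per group, whose number limits the precision.

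Alternative settings were a floor at the 25th or the 75th percentile, no floor, a pseudocount of 32 in its place, median centring, quantile normalization, lowess centring with a span of 0.3, averaging the measured probe sets of a gene, leaving out identifiers ending in _x_at, _s_at or _a_at, and updated symbols. The genes and lists were chosen with earlier results of these data known. Every gene of the rule is named, with the 2 highest and 2 lowest of each cytoskeletal list. The marker genes quoted were chosen after their values were seen. The steps were tested on simulated data, in which only bright genes with a single probe set were changed, each by more than 2-fold. The simulated noise was smaller than the probe set SD. That test does not cover dim genes, genes with several probe sets, small ratios or the updated symbols. Software was Python 3.11.15, numpy 2.4.6, pandas 2.3.3 and statsmodels 0.14.6.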

Additional observations from a re-analysis of the deposited data

How the results depend on the processing

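No paired analysis was possible because each group had 1 array, and for the same reason no array could be left out. A value was taken to have moved when it changed by more than 0.44 for a gene, by that SD over the square root of the number of genes for a median, or by 1.5 times for a count. At the 25th percentile floor 1 of the 36 genes was at least 2-fold higher. Of the 7838 genes measured there, 449 were at least 2-fold lower and 545 higher. With no floor these counts were 1 of the 36 genes, and 893 and 1117 of 8793. With the pseudocount 108 of 8793 genes were at least 2-fold lower and 44 higher, and the dynein and dynactin median was -0.17. At the 75th percentile floor, which fewer genes reach, 1 of 25 tubulin and associated genes was at least 2-fold lower. Both tuba2 and dpysl3 were still read at that floor, short of 2-fold at -0.41 and -0.81. Their signals on the C1q-like morpholino array lay under it and were raised to it. Of all 3374 genes measured there, 103 were at least 2-fold lower and 31 at least 2-fold higher. The medians at that floor were -0.61 for stathmins and -0.47 for the spindle list. Quantile normalization gave medians of -0.25 for alpha tubulins, 0.061 for beta tubulins and 0 for the folding and kinesin lists. Lowess centring gave -0.17 for the measured tubulin and associated genes, -0.25 for alpha tubulins, 0.024 for beta tubulins, -0.0036 for the folding list and -0.010 for kinesins. Without probe sets that share probes the medians were -0.11 for beta tubulins, where tubb4b was not read, and -0.34 for the spindle list. Except where a smaller number of genes or a signal raised to the floor is named, the cause was not tested. Median centring and updated symbols moved none of these values. Readings near the floor, such as those of stmn4, maptb and map1sa, are limited by background.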

Other observations

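Probe sets that name several genes were not read for any gene, and 5 of them include a symbol of the rule. The 3 that name tuba1b together with tuba1a or tuba1c were lower in C1q-like morphants, as tuba1b was by its own probe sets. All of these identifiers have the same stem, so they may not be separate readings. The probe set for tuba1c and tuba1b read 1198.1 in C1q-like morphants and 1530.6 in control morphants, a log2 ratio of -0.35. Those for tuba1a and tuba1b read 681 and 277.7 in C1q-like morphants against 991.9 and 329.1 in control morphants, at -0.54 and -0.24. The probe set for tubgcp5 and cyfip1 did not reach the floor, with 16.1 in C1q-like morphants and 25.4 in control morphants. That for dcxr and col1a1b read 514.1 in C1q-like morphants and 685 in control morphants, the opposite order to the probe set of dcxr alone. In the RefSeq gene order dpysl5a lies next to mapre3a and dpysl5b next to mapre3b, and tuba1b lies next to tuba1a, while 0 pairs of the 36 genes neighbour each other.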
